A study of Mus musculus with 4 samples.

Results

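Cell cycle and mitosis genes were described in male and female mouse liver. The set is a fixed list of 46 genes taken by symbol, and 43 of them were found among the 21827 gene entries of the deposited table. Rb1, Mcm7 and Foxm1 were not analysed here. The 43 genes were ordered by role: 8 cyclins and cyclin-dependent kinases (CDKs) of G1, 4 CDK inhibitors, 5 E2F transcription factors, 2 pocket proteins, 11 genes of S phase and 13 genes of G2 and mitosis. Livers came from CD-1 mice (outbred, Charles River) that were untreated and 8 weeks old, and sex was the only labelled difference between the groups. RNA of 6 livers was combined into each of 4 pools, 2 male and 2 female, and poly-A-enriched RNA was sequenced with a strand-specific preparation. The table holds 1 level per gene and sex, as log2 RPKM (reads scaled by transcript length and library size), and no value per pool. The spread between pools therefore cannot be printed beside any level. For single genes, the fold and the adjusted p were read from the authors' deposited table and a gene was called at an adjusted p under 0.05.

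A cell enters the cycle when D-type cyclins with CDK4 or CDK6, and then E-type cyclins with CDK2, phosphorylate the pocket proteins and release E2F factors, which switch on the genes of DNA replication. Genes of G2 and mitosis are switched on later, and many of their promoters carry a CHR element (cell cycle genes homology region) and CCAAT boxes. CDK inhibitors hold the kinases back. Most hepatocytes of an adult liver rest outside the cycle, many of them polyploid, so transcripts of replication and mitosis are scarce in this tissue.

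Promoters are shown first for the called members whose start region held an E2F site or a CHR element, because these are the elements through which the S phase and mitotic genes are known to be timed. RefSeq promoters (GRCm38.p6, 250 bases before and 50 from the transcript start) were matched for 36 of the 43 members. That build differs from mm9, the build of the expression table, and the reference strain is not CD-1. Both strands were searched for the E2F site (TTTCGCGC or TTTGGCGC), the CHR element (TTTGAA or TTCGAA) and the CCAAT box (CCAAT). Capitals mark E2F sites in Rbl1, Mcm3, Mcm6 and Cdt1, and CHR elements in Mki67, Plk1 and Bub1b.
Rbl1 (chr2:157204485-157204784, - strand): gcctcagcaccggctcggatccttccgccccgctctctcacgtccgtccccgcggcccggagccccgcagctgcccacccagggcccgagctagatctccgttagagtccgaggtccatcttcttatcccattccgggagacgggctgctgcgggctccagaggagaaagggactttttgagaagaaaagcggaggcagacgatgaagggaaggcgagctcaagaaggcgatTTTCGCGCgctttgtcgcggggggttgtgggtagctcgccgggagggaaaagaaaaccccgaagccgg
Mcm3 (chr1:20820263-20820562, - strand): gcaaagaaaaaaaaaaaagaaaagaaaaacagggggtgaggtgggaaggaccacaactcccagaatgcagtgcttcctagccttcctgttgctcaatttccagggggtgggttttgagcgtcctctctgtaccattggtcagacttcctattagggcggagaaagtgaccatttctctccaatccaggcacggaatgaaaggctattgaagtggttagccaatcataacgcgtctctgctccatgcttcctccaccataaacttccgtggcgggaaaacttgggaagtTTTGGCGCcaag
Mcm6 (chr1:128359656-128359955, - strand): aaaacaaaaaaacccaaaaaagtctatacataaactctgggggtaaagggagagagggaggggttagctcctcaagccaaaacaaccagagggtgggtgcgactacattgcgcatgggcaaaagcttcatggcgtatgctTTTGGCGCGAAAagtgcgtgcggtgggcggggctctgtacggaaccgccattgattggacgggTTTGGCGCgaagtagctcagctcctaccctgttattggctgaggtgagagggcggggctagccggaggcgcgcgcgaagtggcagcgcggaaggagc
Cdt1 (chr8:122567765-122568064, + strand): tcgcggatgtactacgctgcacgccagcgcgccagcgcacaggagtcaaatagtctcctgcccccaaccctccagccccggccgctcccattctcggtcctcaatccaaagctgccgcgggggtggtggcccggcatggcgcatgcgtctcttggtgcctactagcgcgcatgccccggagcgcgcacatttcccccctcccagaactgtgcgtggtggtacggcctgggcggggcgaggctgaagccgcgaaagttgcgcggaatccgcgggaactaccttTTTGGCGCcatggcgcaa
Mki67 (chr7:135716330-135716629, - strand): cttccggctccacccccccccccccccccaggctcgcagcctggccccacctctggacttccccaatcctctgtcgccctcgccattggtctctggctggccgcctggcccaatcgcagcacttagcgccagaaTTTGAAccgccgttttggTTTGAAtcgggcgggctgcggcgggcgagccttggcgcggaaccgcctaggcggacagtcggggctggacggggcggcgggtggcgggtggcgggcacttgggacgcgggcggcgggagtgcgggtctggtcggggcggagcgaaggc
Plk1 (chr7:122159185-122159484, + strand): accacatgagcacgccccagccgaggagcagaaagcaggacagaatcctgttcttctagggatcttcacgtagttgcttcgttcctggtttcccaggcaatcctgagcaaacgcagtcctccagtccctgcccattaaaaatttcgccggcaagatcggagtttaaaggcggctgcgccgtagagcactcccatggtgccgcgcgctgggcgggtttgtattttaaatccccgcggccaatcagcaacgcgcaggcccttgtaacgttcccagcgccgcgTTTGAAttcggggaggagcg
Bub1b (chr2:118597961-118598260, + strand): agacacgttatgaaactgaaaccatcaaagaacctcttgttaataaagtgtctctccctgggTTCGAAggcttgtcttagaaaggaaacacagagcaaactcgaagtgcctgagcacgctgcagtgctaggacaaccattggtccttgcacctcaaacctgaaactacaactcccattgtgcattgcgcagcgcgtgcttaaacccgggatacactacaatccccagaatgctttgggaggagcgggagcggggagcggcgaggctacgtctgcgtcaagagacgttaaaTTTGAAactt

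The E2F site of Rbl1 began at -18 from the transcript start and that of Cdt1 at 33. Mcm6 held 3 E2F matches, at -110, -106 and -47, of which the first pair overlap on opposite strands. Mki67 held CHR matches at -116 and -98, just downstream of 3 CCAAT boxes, and the single CHR match of Plk1 lay at 31. Over the S phase members, 4 of 10 promoters held an E2F site, against 0.813% of all 32851 promoters in the RefSeq table. Over the G2 and mitosis members, 9 of 11 held a CHR element (81.8%, against 19.2% of all promoters) and 10 of 11 a CCAAT box (90.9%, against 37.4%). All 3 called S phase members held a match to the E2F strings searched, and so did 1 of 7 that were not called. Other forms of the E2F site were not searched, so a promoter without a match may still hold one. Of the mitotic promoters, 3 of 3 called and 6 of 8 uncalled ones held a CHR element. None of these matches was measured as a binding site here.

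**Figure D1:**
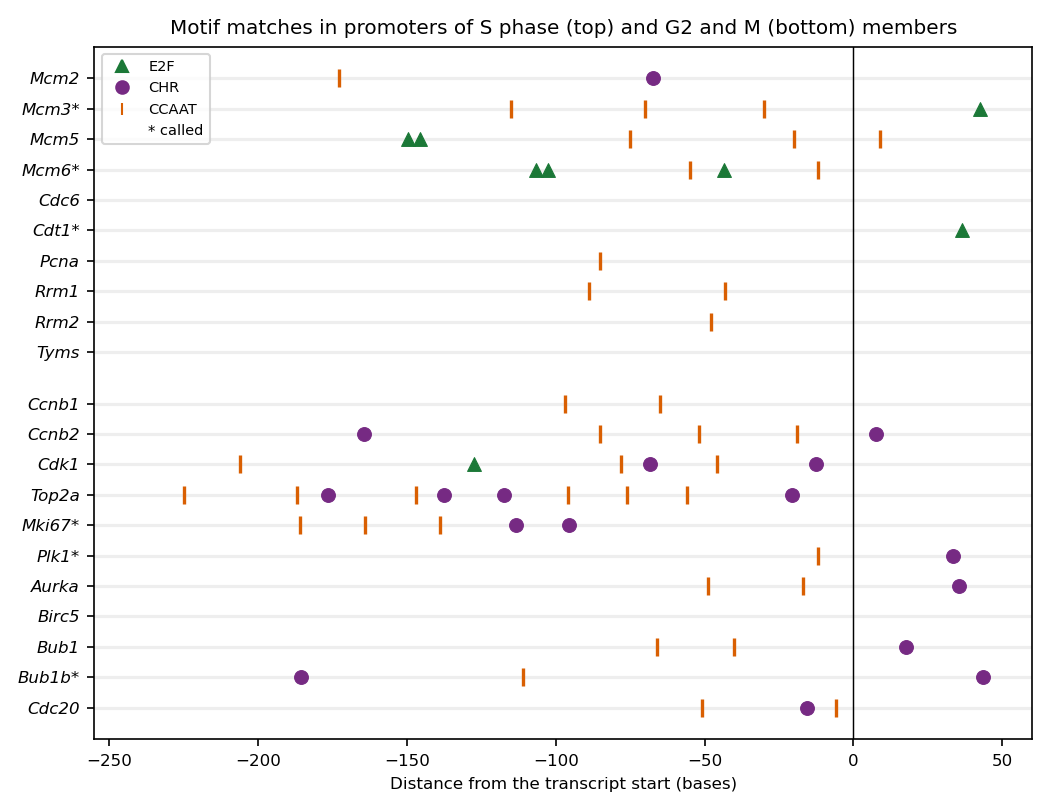
Positions of E2F sites (triangles), CHR elements (circles) and CCAAT boxes (bars) in RefSeq promoters of the 10 S phase and 11 G2 and mitosis members that had one. The x axis gives distance from the transcript start in bases. CHR elements occur in 9 of the 11 mitotic promoters and in 1 of the 10 S phase promoters, and an asterisk marks members called between the sexes.

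Among the 43 members, 13 were higher in female liver, 1 was higher in male liver and 29 were not called. This is 30.2% higher in female and 2.33% in male. Over all 13763 genes with a ratio between the sexes, 17.4% were called, 10.2% higher in female and 7.21% higher in male liver. The female-higher members were Ccnd1, Ccne2, Cdkn1a, Cdkn1c, Cdkn2c, Rbl1, Mcm3, Mcm6, Cdt1, Ccna2, Mki67, Plk1 and Bub1b, and the male-higher member was Ccne1. The share called female-higher was thus above the background and the share called male-higher below it. The median log2 ratio of male over female was -0.385 over the members and -0.024 over all genes compared. At the stricter adjusted p under 0.01 of the authors' own classes, 9 members were female-biased and Ccne1 was male-biased, against 6.05% and 4.16% of all genes compared. All 13 female-higher members also differed by at least 1.5-fold, so their share stayed at 30.2% of members. Over all genes compared, 8.38% were both called female-higher and at least 1.5-fold higher.

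Reads behind a level can be recovered where the transcript length is known, taking the value that the authors added at the floor of the scale as 1 read. By this measure male liver had 11239946 and female liver 14717080 reads, so depth was 1.31 times as high in females. A length was found for 33 members, whose reads are called implied reads here. For each such gene, a counting interval of the fold was made from both read numbers (exact, Clopper-Pearson, 95%). It covers counting error alone, since reads are not independent molecules, and leaves out differences between pools. Its scaling is by implied depth, which differs from the authors' normalization.

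**Figure D2:**
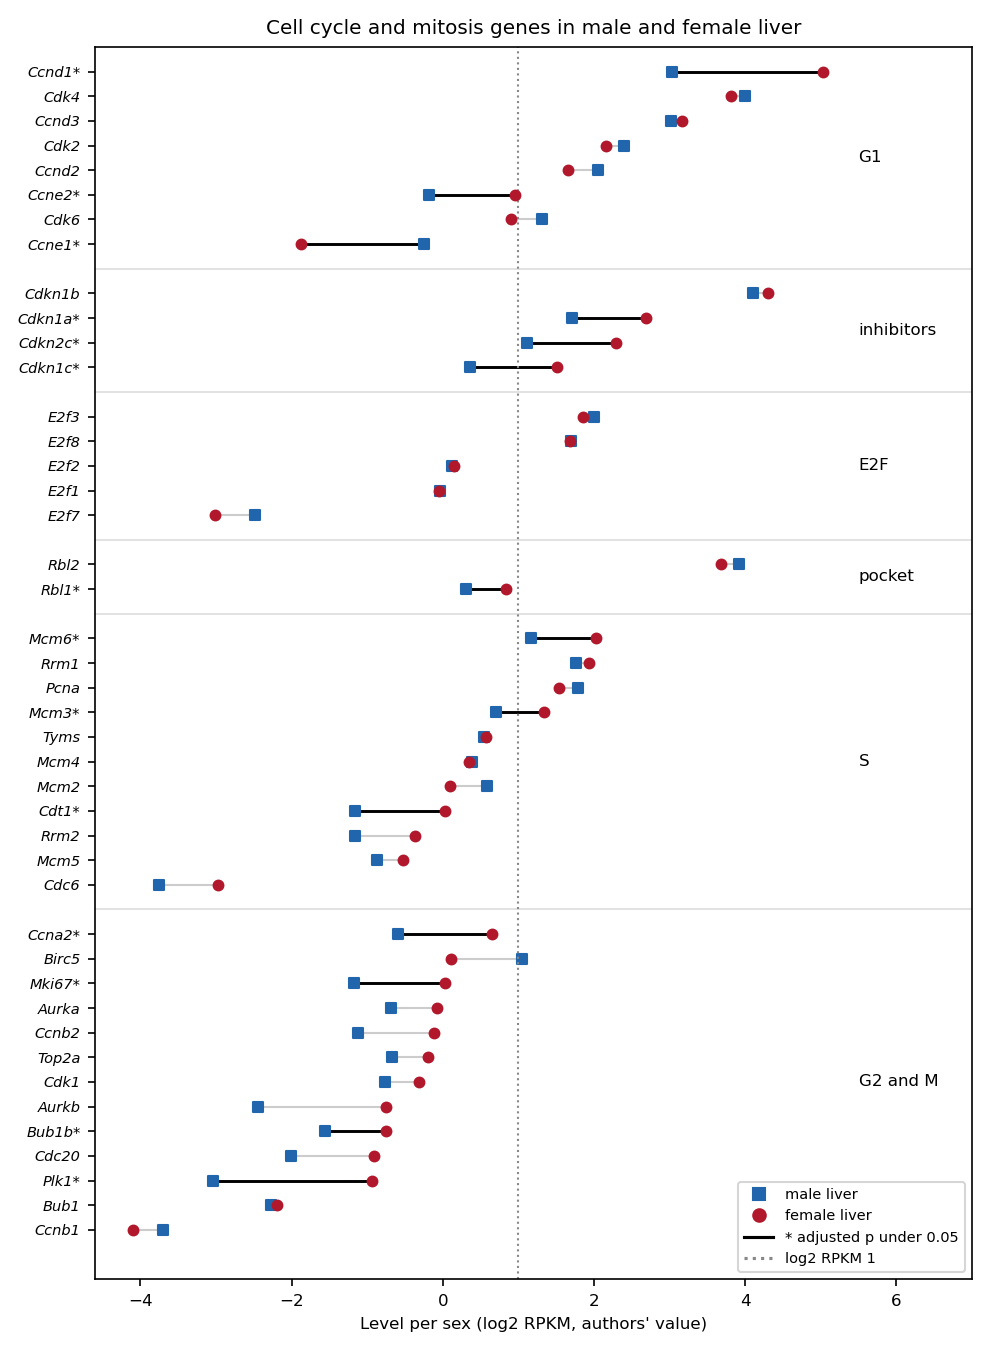
Level of each of the 43 members in male (squares) and female liver (circles), in log2 RPKM, grouped by role and sorted by the female level. Black lines and asterisks mark the 14 called members, and the dotted line marks a log2 RPKM of 1. G1 genes and inhibitors reach log2 RPKM 4 to 5, while the mitotic genes lie near or below 1 in both sexes.

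The G1 genes were led by cyclin D1. Ccnd1, which encodes the cyclin that carries mitogen signals to CDK4 and CDK6 (chromosome 7, 152115836 to 152125830, mm9), had a log2 RPKM of 3.035 in male and 5.023 in female liver, or 8.2 and 32.5 RPKM. It was 4.35-fold higher in females by the authors' deposited table (adjusted p = 4.53e-24), the smallest adjusted p among the members. In female liver it had the highest level of any member, while in male liver Cdkn1b, Cdk4 and Rbl2 stood above it. Its paralogs were not called. Ccnd2 had a log2 RPKM of 2.047 in male and 1.652 in female liver (adjusted p = 0.269), and Ccnd3 had 3.022 and 3.164 (adjusted p = 0.706; authors' deposited table). Cdk4, the kinase partner, stood at 3.992 and 3.809 (adjusted p = 0.583), and neither Cdk6 (1.309 and 0.906, adjusted p = 0.0766) nor Cdk2 (2.402 and 2.154, adjusted p = 0.222; authors' deposited table) was called.

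The E-type cyclins, the partners of CDK2 at the entry to S phase, went in opposite directions. Ccne2 (chromosome 4, 11118856 to 11131926, mm9) had a log2 RPKM of -0.181 in male and 0.949 in female liver and was 2.35-fold higher in females by the authors' deposited table (adjusted p = 0.000323). Ccne1 (chromosome 7, 38883003 to 38892553, mm9) had -0.244 in male and -1.88 in female liver and was 3.38-fold higher in males by the authors' deposited table (adjusted p = 0.00614). The levels of the pair were close in male liver, and in female liver Ccne2 was the more abundant. In RPKM, Ccne1 went from 0.844 in male to 0.272 in female liver, and Ccne2 from 0.882 to 1.93. No transcript length was found for Ccne1, so its fold has no counting interval. The median log2 ratio of the 8 G1 genes was 0.209.

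Of 4 CDK inhibitor genes, 3 were higher in female liver. Cdkn1a, which encodes the p53-inducible inhibitor p21 (chromosome 17, 29227931 to 29237667, mm9), had a log2 RPKM of 1.704 in male and 2.682 in female liver, a 2.01-fold difference by the authors' deposited table (adjusted p = 0.000312). Cdkn1c, an imprinted gene for the inhibitor p57 (chromosome 7, 150644244 to 150646955, mm9), had 0.366 and 1.51 and differed 2.34-fold (adjusted p = 0.00108; authors' deposited table). Cdkn2c, whose product binds CDK4 and CDK6 (chromosome 4, 109333481 to 109337977, mm9), had 1.118 and 2.297 and differed 2.30-fold (adjusted p = 0.00204; authors' deposited table). Cdkn1b, the gene of p27 and the most abundant of the inhibitors, stood at 4.104 in male and 4.297 in female liver (1.16-fold, adjusted p = 0.292; authors' deposited table). The median log2 ratio of these 4 genes was -1.10. The 3 called inhibitors and Ccnd1, whose products act in opposite ways on G1 kinases, were higher in the same sex.

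None of the 5 E2F genes was called, and their median log2 ratio was 0.079. Of all genes compared, 17.4% were called, and a list of 5 genes is too short to be set apart from that share. E2f3, an activator, had a log2 RPKM of 1.996 in male and 1.852 in female liver (adjusted p = 0.772; authors' deposited table). E2f8, an atypical repressor known for its part in hepatocyte polyploidy, had 1.69 and 1.686 (adjusted p = 0.637; authors' deposited table), and its relative E2f7 was scarce, at -2.486 and -3.012. The activators E2f1 and E2f2 lay near a log2 RPKM of 0 in both sexes, at -0.036 and -0.05 for E2f1 and at 0.122 and 0.142 for E2f2. For E2f8, with about 133 and 174 implied reads, counting error alone allows a female over male fold of 0.793 to 1.26. For E2f7, with 10 and 9 reads, it allows 0.247 to 1.88, so a difference of that size was not detectable at this depth.

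Of the 2 pocket protein genes, 1 was called, against 17.4% of all genes compared. Rbl1 (p107), itself an E2F target (chromosome 2, 156971630 to 157030270, mm9), had a log2 RPKM of 0.307 in male and 0.842 in female liver and was 1.56-fold higher in females by the authors' deposited table (adjusted p = 0.0193). Rbl2 (p130), the pocket protein of resting cells, was the more abundant, at 3.915 in male and 3.686 in female liver, and was not called (adjusted p = 0.218; authors' deposited table).

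Of 11 S phase genes, 3 were higher in female liver (27.3%) and 8 were not called, with a median log2 ratio of -0.385. Over all genes compared, 10.2% were female-higher. Over all genes under a log2 RPKM of 1 in both sexes, 12.7% were female-higher, with a median of -0.201. Mcm6, a subunit of the MCM2-7 replicative helicase (chromosome 1, 130228168 to 130256233, mm9), had a log2 RPKM of 1.161 in male and 2.026 in female liver and was 1.75-fold higher in females by the authors' deposited table (adjusted p = 0.0076). Mcm3, another subunit (chromosome 1, 20793055 to 20810359, mm9), had 0.709 and 1.333 and was 1.58-fold higher (adjusted p = 0.0384; authors' deposited table). Cdt1, which loads the helicase on DNA (chromosome 8, 125091915 to 125097030, mm9), had -1.163 and 0.034 and was 2.52-fold higher (adjusted p = 0.0159; authors' deposited table).

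The helicase subunits work in a single complex, and of the 5 measured Mcm3 and Mcm6 were called. Mcm2 stood at 0.588 in male and 0.094 in female liver (adjusted p = 0.118), Mcm4 at 0.392 and 0.342 (adjusted p = 0.751) and Mcm5 at -0.874 and -0.526 (adjusted p = 0.619; authors' deposited table). The ratio was toward male liver for Mcm2 and toward female liver for Mcm3, Mcm5 and Mcm6, and for Mcm4 its sign changed between the normalized log2 ratio (-0.045) and the plain difference of levels (0.05). Pcna, the sliding clamp of DNA polymerase, had a log2 RPKM of 1.789 and 1.54 (adjusted p = 0.602; authors' deposited table). Among the enzymes that supply nucleotides, Rrm1 had 1.757 and 1.934 (adjusted p = 0.461), Tyms had 0.551 and 0.572 (adjusted p = 1), and Rrm2, the subunit that limits ribonucleotide reductase in cycling cells, had -1.157 and -0.362 (adjusted p = 0.0887; authors' deposited table). Cdc6, the partner of Cdt1, was the scarcest S phase gene, at -3.756 and -2.975.

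Of 13 G2 and mitosis genes, 4 were higher in female liver (30.8%) and 9 were not called, and the ratio was toward female liver for 11 of the 13. The female-higher share was 10.2% over all genes compared and 12.7% over those under a log2 RPKM of 1 in both sexes. Mki67, the proliferation antigen Ki-67 (chromosome 7, 142881471 to 142908062, mm9), had a log2 RPKM of -1.181 in male and 0.025 in female liver and was 2.42-fold higher in females by the authors' deposited table (adjusted p = 2.44e-05). Ccna2, the cyclin of S phase and G2 (chromosome 3, 36463788 to 36470920, mm9), had -0.591 and 0.65 and was 2.44-fold higher (adjusted p = 0.00273; authors' deposited table). Plk1, the Polo-like kinase of mitotic entry (chromosome 7, 129302951 to 129313389, mm9), had -3.046 and -0.932. It was 6.24-fold higher in females by the authors' deposited table (adjusted p = 0.00543), but on 2 implied reads in male and 16 in female liver, so that counting alone allows 1.44-fold to 54.8-fold. Bub1b, a spindle checkpoint kinase gene (chromosome 2, 118423947 to 118467328, mm9), had -1.56 and -0.756 and was 1.91-fold higher (adjusted p = 0.0356; authors' deposited table). Its 13 and 31 reads alone allow 0.926-fold to 3.79-fold.

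Most uncalled mitotic genes were scarce, as were the called ones. Aurkb, the kinase of the chromosomal passenger complex, had a log2 RPKM of -2.448 in male and -0.75 in female liver (4.08-fold in the authors' deposited table, adjusted p = 0.0569). Cdc20, the activator of the anaphase-promoting complex, had -2.005 and -0.908 (2.57-fold, adjusted p = 0.157; authors' deposited table), on 4 and 13 implied reads. Ccnb2 had -1.115 and -0.112 (adjusted p = 0.126), Aurka -0.687 and -0.076 (adjusted p = 0.276), Top2a -0.666 and -0.198 (adjusted p = 0.0724) and Cdk1, the mitotic kinase, -0.76 and -0.309 (adjusted p = 0.594; authors' deposited table). For Top2a, 36 and 66 implied reads allow a female over male fold of 0.919 to 2.16 by counting, and for Cdk1 28 and 51 reads allow 0.861 to 2.29. Bub1 stood at -2.266 and -2.196 (adjusted p = 0.496; authors' deposited table), and Ccnb1 at -3.704 and -4.093, with about 1.1 implied reads in each sex. Birc5, the survivin gene, was the only mitotic member to reach a log2 RPKM of 1, with 1.047 in male and 0.106 in female liver (adjusted p = 0.205; authors' deposited table).

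**Figure D3:**
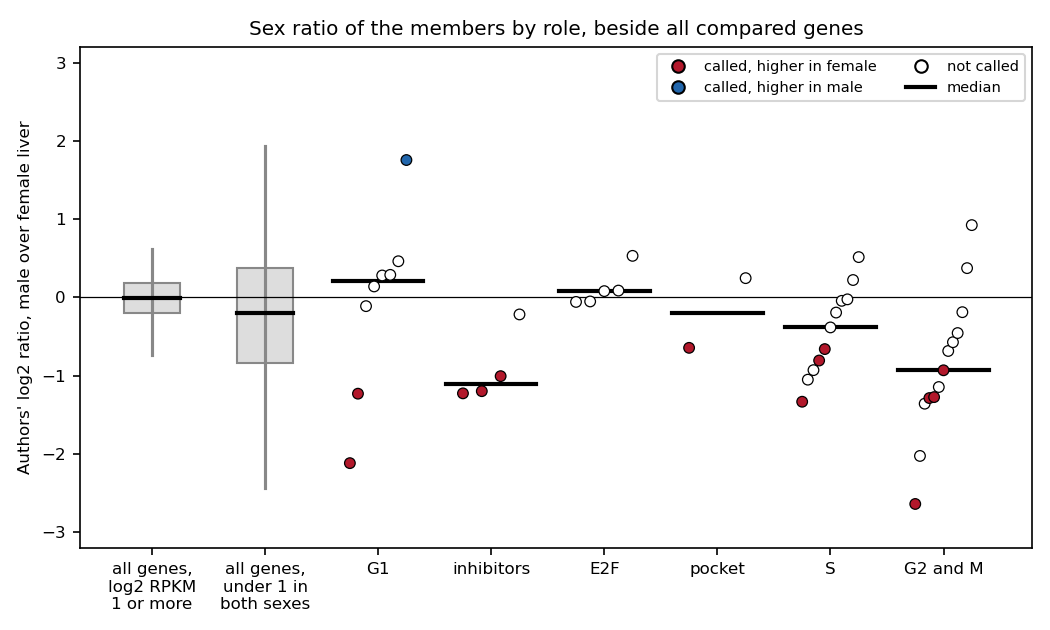
Log2 ratio of male over female liver for each member by role, with the median of each role as a bar. Grey boxes give the middle 50% of all compared genes, with lines from the lower to the upper 5% limit, for genes at a log2 RPKM of 1 or more and for genes under 1 in both sexes. The inhibitors (median -1.10) and the mitotic genes (median -0.933) lie below the medians of all genes, and the E2F factors lie at 0.079.

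Members were also read by level, since female liver was sequenced more deeply and many members were scarce. Of 25 members under a log2 RPKM of 1 in both sexes, 7 were female-higher (28.0%) and 1 male-higher (4.0%), with a median log2 ratio of -0.646. Over all 4023 genes under that level, 12.7% were female-higher and 5.29% male-higher, with a median of -0.201. Of 18 members at or above that level in either sex, 6 were female-higher (33.3%), against 9.2% of all such genes, and the median of these members was -0.017. The count of female-higher members above that level is thus made up of Ccnd1, the 3 inhibitors, Mcm3 and Mcm6. Of these, Cdkn1c (0.366 in male and 1.51 in female liver) and Mcm3 (0.709 and 1.333) reached it in female liver alone. The uncalled members Cdk6 (1.309 and 0.906) and Birc5 (1.047 and 0.106) reached it in male liver alone. The share above that level is therefore not independent of the difference between the sexes. The part of the depth difference in the calls of scarce genes was not tested.

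The called members Ccne1, Mcm3 and Ccna2 had no transcript length, so no counting interval could be made for them. Ccnd1 had about 344 implied reads in male and 1789 in female liver, with an interval of 3.54-fold to 4.47-fold. The intervals of Mki67 (1.68-fold to 3.3-fold), Cdkn1a (1.32-fold to 3.07-fold), Cdkn1c (1.45-fold to 3.72-fold), Cdkn2c (1.47-fold to 3.77-fold), Ccne2 (1.44-fold to 3.5-fold), Mcm6 (1.39-fold to 2.45-fold), Cdt1 (1.17-fold to 5.57-fold) and Rbl1 (1.07-fold to 1.98-fold) also lay above 1.

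**Figure D4:**
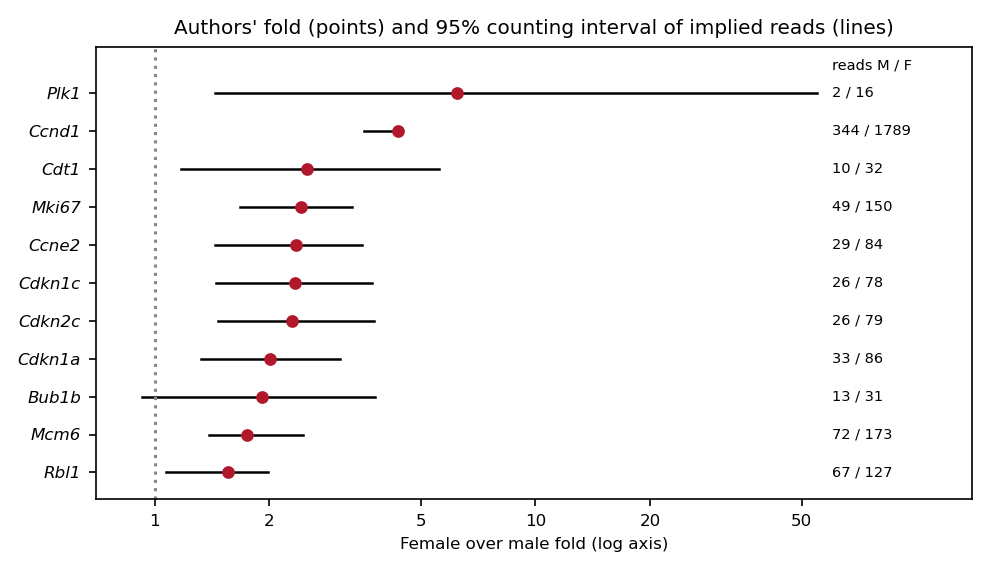
The authors' female over male fold (points) and the exact 95% counting interval of the ratio of implied reads (lines) for the 11 called female-higher members with a transcript length, on a log axis. Implied reads in male and female liver are printed at the right. The interval of Ccnd1 is the narrowest, that of Plk1 spans 1.44-fold to 54.8-fold, and that of Bub1b alone includes 1.

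Among the called members, Ccne2 and Ccna2 overlap another gene on the opposite strand, Ints8 and Exosc9. The sources used here do not say whether counting used the strand. Neither neighbour was called (Ints8, log2 RPKM 3.046 in male and 2.943 in female liver, adjusted p = 0.7; Exosc9, 3.354 and 3.514, adjusted p = 0.685 in the authors' deposited table). Both are more abundant than the member they overlap. The uncalled members Ccnd2, Ccnd3, Cdk6, Rbl2 and Cdc20 also overlap an opposite-strand gene. That of Ccnd2, 9330179D12Rik, was 12.67-fold higher in males (adjusted p = 0.00451 in the authors' deposited table). Elovl1, which overlaps Cdc20, had a log2 RPKM of 4.389 in male and 4.394 in female liver. Of the further genes named below, Gins2, Lig1, Ncapg, Pkmyt1, Rbbp4, Cdk19, Gadd45a and Plk3 overlap such a gene too. Pcna and Ccnb1 have processed pseudogenes in the mouse genome, and the sources used here do not say how reads matching several copies were treated, so their levels are uncertain.

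Other genes of the cycle were read from lists that hold 194 further genes, 180 of them with a ratio. In all, 34 of the 180 were higher in female (18.9%) and 12 in male liver (6.67%), against 10.2% and 7.21% of all genes compared. Of the genes of the spindle and of cytokinesis, 12 of 23 were female-higher (52.2%) and none was male-higher, with a median log2 ratio of -1.25. Ckap2, a spindle microtubule protein, had a log2 RPKM of -2.063 in male and 0.573 in female liver and was 7.08-fold higher in females by the authors' deposited table (adjusted p = 2.83e-06). Hmmr had -2.876 and -0.72 (5.29-fold, adjusted p = 0.000297), and Tpx2, which activates Aurora A on the spindle, had -2.549 and -0.69 (4.16-fold, adjusted p = 0.00074; authors' deposited table), on 7 and 37 implied reads. Kifc1, a minus-end-directed kinesin, had no implied reads in males and about 10.2 in females (adjusted p = 0.00234 in the authors' deposited table). With a floor of 3 reads set for all male pools together, the female level is 2.6-fold above that floor. Counting alone allows a female over male fold as low as 1.71. None of the 24 genes of this list reached a log2 RPKM of 1. Over all genes under that level in both sexes, 12.7% were female-higher and 5.29% male-higher, with a median log2 ratio of -0.201.

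Kinetochore and spindle checkpoint genes had 8 female-higher and 1 male-higher gene of 23 (34.8% and 4.35%), with a median log2 ratio of -0.598. Cenpm, a centromere protein gene, had a log2 RPKM of 0.83 in male and 2.65 in female liver, on 23 and 110 implied reads, and was 3.93-fold higher in females by the authors' deposited table (adjusted p = 1.79e-08). Casc5, the kinetochore scaffold, was 2.87-fold higher (adjusted p = 0.0141), Cenpe, a kinetochore kinesin, 4.84-fold (adjusted p = 0.0332), and Nuf2, a subunit of the NDC80 complex, 8.37-fold (adjusted p = 0.00621; authors' deposited table). Nuf2 rests on 2 and 22 implied reads, which alone allow 2.07-fold to 73.7-fold. Cenpe rests on about 3.0 and 19.2 implied reads, which allow 1.42-fold to 25.5-fold. The male-higher gene, named after its value was seen, was the checkpoint gene Mad1l1 (1.48-fold, adjusted p = 0.0144; authors' deposited table). Of 13 condensin, cohesin and separase genes, 3 were female-higher (23.1%, against 10.2% of all genes compared), with a median of -0.143. They were Ncapg, a condensin subunit (6.9-fold, adjusted p = 7.87e-07), Ncapg2 (2.01-fold, adjusted p = 0.00376) and Pttg1, the separase inhibitor securin (2.22-fold, adjusted p = 0.00772 in the authors' deposited table).

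Among 21 genes of the anaphase-promoting complex and of the CDC25 and WEE1 families, 2 were female-higher and none male-higher (median -0.026). The female-higher share of 9.52% was near the 10.2% of all genes compared. These were Ube2c, the ubiquitin-conjugating enzyme of that complex (7.82-fold in the authors' deposited table, adjusted p = 0.0241), and Pkmyt1, which inhibits CDK1 (9.3-fold, adjusted p = 0.0433). Pkmyt1 had 1 implied read in males and 12 in females, with a counting interval of 1.36-fold to 392-fold. Ube2c, for which no transcript length was found, had a log2 RPKM of -2.388 in male and -0.317 in female liver. Of 12 E2F partners and MuvB genes, 2 were female-higher (16.7%) and 1 male-higher (8.33%), against 10.2% and 7.21% of all genes compared. Mybl2 (12.22-fold, adjusted p = 0.00238) and Mybl1 (4.39-fold, adjusted p = 0.00104, authors' deposited table), which encode MYB factors, were higher in female liver. Both were scarce, with a log2 RPKM of -3.887 in male and -1.189 in female liver for Mybl2 and -2.739 and -0.855 for Mybl1. The histone-binding protein gene Rbbp4 was 1.3-fold higher in male liver (adjusted p = 0.0494 in the authors' deposited table). The inhibitor genes Cdkn2a, Cdkn2b and Cdkn3 had no ratio to compare.

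Genes of origins and of the replication fork were called in both directions: 3 of 41 were female-higher (7.32%) and 4 male-higher (9.76%), with a median log2 ratio of -0.06. Over all genes compared, these shares were 10.2% and 7.21%. Mcm10, an origin-firing factor, was the most abundant gene of the list, with a log2 RPKM of 4.883 in male and 3.011 in female liver, and was 4.06-fold higher in males by the authors' deposited table (adjusted p = 1.89e-22). Gins2, a subunit of the replicative helicase, was 5.12-fold higher in male liver (adjusted p = 0.0155 in the authors' deposited table). It was scarce, with a log2 RPKM of -1.674 in male and -3.763 in female liver. The polymerase subunit genes Pole2 (3.15-fold, adjusted p = 0.0466) and Pold1 (2.73-fold, adjusted p = 0.017; authors' deposited table) were higher in females. The other called genes of the list, named to complete the counts after their values were seen, were the DNA ligase gene Lig1 (2.33-fold higher in females) and Rpa2 and Rfc1 (1.52-fold and 1.34-fold higher in males, authors' deposited table). Mcm10 stood above every Mcm2 to Mcm6 subunit in both sexes, the highest of which was Mcm6 at 2.026.

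**Figure D5:**
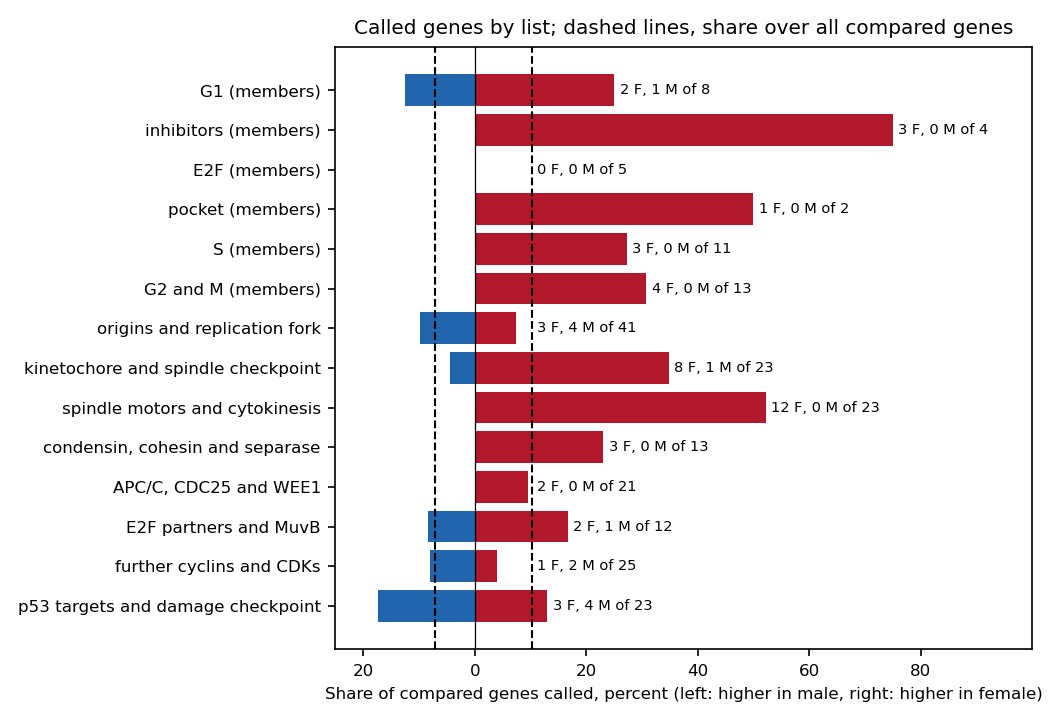
Share of compared genes called higher in female (right, red) and in male liver (left, blue) for each role and each further list, in percent, with the counts beside the bars. Dashed lines give the shares over all genes compared, 10.2% and 7.21%. For genes under a log2 RPKM of 1 in both sexes, as all spindle and cytokinesis genes are, the shares were 12.7% and 5.29%. Spindle and cytokinesis genes reach 52.2% female-higher and no gene of that list is male-higher, while origin and fork genes lie at 7.32% and 9.76%.

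The tissue was checked against cell type markers. The 6 hepatocyte markers summed to 42700 RPKM in male and 58200 in female liver, the highest sum of any marker list in both sexes. Of these, Alb was higher in female liver by the authors' deposited table (1.62-fold, adjusted p = 0.000181), while Apoa1 (1.49-fold, adjusted p = 0.00214) and Tdo2 (1.62-fold, adjusted p = 0.000184) were higher in male liver. Alb made up most of both sums, with 29000 RPKM in male and 46900 in female liver. The ratio was toward female liver for 3 hepatocyte markers and toward male liver for 3. A sum follows the most abundant genes of its list and does not describe the list as a whole. In whole liver, more cells of a type and more RNA per cell cannot be told apart. For the counts of called markers, the shares over all genes compared were 10.2% female-higher and 7.21% male-higher. The marker lists are short, so a list with few or no calls cannot be set apart from these shares. Of 6 Kupffer cell markers, 3 were higher in females by the authors' deposited table, Marco (3.21-fold), Vsig4 (1.38-fold) and Clec4f (1.33-fold). The summed level of all 6 was 142 RPKM in male and 178 in female liver. Of 5 stellate cell markers, Lrat (1.78-fold), Pdgfrb (1.81-fold) and Dcn (1.41-fold) were called higher in female liver. Des, with 1.82 RPKM in male and 1.28 in female liver, had its ratio toward male liver and was not called (adjusted p = 0.265). Reln, with 8.33 and 9.11 RPKM, was not called either (adjusted p = 0.442; authors' deposited table). The sums of the stellate cell markers were 92.7 and 124 RPKM. None of the 5 sinusoidal endothelial (124 and 134 RPKM) or 4 B cell markers (2.26 and 1.35 RPKM) was called. Among T and NK cell markers, Nkg7 was called of 4, higher in female liver, with sums of 1.11 and 3.07 RPKM. Nkg7 alone held 1.67 RPKM of the female sum. Neutrophil markers summed to 6.03 and 9.06 RPKM with none called, and Camp lay at the floor in both sexes. Erythroid markers summed to 172 and 97.5 RPKM, with Alas2 called higher in male liver. Alas2 went from 86.2 RPKM in male to 13.4 in female liver, while Hbb-b1 stood at 73.7 and 73.8 RPKM. Cholangiocyte markers summed to 46.5 and 31.5 RPKM, with Sox9 called higher in female and Spp1 in male liver. Spp1 made up most of these sums, with 43.9 RPKM in male and 27.9 in female liver. The part of these cell types in the differences of cell cycle genes was not tested.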

How the data were processed

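Liver RNA of 2 male and 2 female pools, each of 6 livers, was analysed from the deposited table of 21827 gene entries. Bowtie and edgeR, without versions or roles, and mm9 are named in the submitters' processing notes. Per the file headers, the authors deposited log2 RPKM per sex, a normalized log2 ratio, a linear ratio, a signed fold change (a score, negative for female-higher genes) and an adjusted p-value; the method of the adjustment and the gene assignment are not given in the sources used here. Because the table does not separate the 2 pools of a sex, no gene was tested anew, and p-values reflect the authors' model over these pools.

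Genes were compared unless both sexes lay at the floor (6590), 1 sex did with the ratio at 1 (1460) or no level was given with the ratio at 1 (14), which left 13763. The members and lists were chosen with earlier results of these data known. Members found were given in full or by range; from each further list, up to 4 called genes by size of ratio, or the 2 most abundant where fewer than 2 were called, are named. Transcript lengths came by RefSeq accession from GENCODE vM21, used for lengths alone. Implied reads are the level times length and depth, less 1 read. Of 33 members with a length, 12 gave whole numbers (within 0.1, for values under 100) in both sexes, 11 did not and 10 had too many reads to tell, so reads of the latter groups are approximate. Intervals were exact (Clopper-Pearson, 95%) and were tested on simulated data only. The simulated reads used the lengths, depths and added read that the method assumes, without differences between pools. They could therefore not check those assumptions. Python 3.11.15, pandas 2.3.3, scipy 1.17.1 and matplotlib 3.10.9 were used. Alternatives were a stricter adjusted p, a minimum fold, the plain difference of levels, a filter on level and removal of the added read. The level of 1 marker gene is not reported here.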

Additional observations from a re-analysis of the deposited data

How the results depend on the processing

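The counts of called members were 13 female-higher and 1 male-higher. With only members that the authors flag as liver-expressed (log2 RPKM 1 or more in a sex) they were 6 and 0, because 25 of the 43 members lie under that level. These levels leave Ccne1, Ccne2, Rbl1, Cdt1, Ccna2, Mki67, Plk1 and Bub1b out. Of the 6, Cdkn1c and Mcm3 passed through their female level alone. Both counts were the same with the plain difference of log2 RPKM values for the direction and with a minimum of 1.5-fold, and at an adjusted p under 0.01 they were 9 and 1. The median log2 ratio of the pocket proteins went from -0.2 to 0.245 under the level filter, which leaves Rbl2 alone, and that of the G2 and mitosis genes from -0.933 to 0.923, which leaves Birc5 alone. No other median by role moved beyond the counting error of its members. The log2 ratios of all 43 members with the plain difference, and of the 33 with a length after removal of the added read, moved by less than the counting error of the gene (of the members with a length, where it had none), and no called member changed sign. The median of all genes compared was -0.024 by the normalized ratio and 0.004 by the plain difference. No paired analysis was possible because the table gives no value per pool, and no pool could be left out for the same reason.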

Other observations

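Cyclins and CDKs outside the core cycle include many that act in transcription. Of 25 such genes with a ratio, 1 was higher in female and 2 in male liver (4.0% and 8.0%, against 10.2% and 7.21% of all genes compared), with a median log2 ratio of -0.008. Cdk8, the kinase of the Mediator complex, had a log2 RPKM of 5.111 in male and 6.399 in female liver and was 2.12-fold higher in females by the authors' deposited table (adjusted p = 3.13e-08). Its paralog Cdk19 was 1.39-fold higher in male liver (1.684 and 1.254, adjusted p = 0.0384), and in the same authors' deposited table Ccnf, the F-box cyclin, was 1.75-fold higher in male liver (0.471 and -0.384, adjusted p = 0.0429).

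Among 23 p53 targets and DNA damage checkpoint genes, 3 were higher in female and 4 in male liver (13.0% and 17.4%, median log2 ratio -0.02). Over all genes compared, the shares were 10.2% and 7.21%. Btg2, a p53 target, was 1.85-fold higher in female liver by the authors' deposited table (adjusted p = 0.00204). Gadd45a, another p53 target, went the other way in the authors' deposited table and was 2.5-fold higher in male liver, with a log2 RPKM of 2.861 in male and 1.472 in female liver (adjusted p = 8.65e-05). Chek1, the replication checkpoint kinase, was 3.4-fold higher in female liver (adjusted p = 0.00167) on 7 and 30 implied reads, and Atm was, also by the authors' deposited table, 1.67-fold higher in male liver (adjusted p = 0.00116). The other called genes of the list, named to complete the counts after their values were seen, were Plk2, which was 1.39-fold higher in female liver (adjusted p = 0.0485), and the male-higher genes Sesn1 (1.5-fold, adjusted p = 0.0103) and Plk3 (1.43-fold, adjusted p = 0.0158; authors' deposited table).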
